A study of Mus musculus with 6 samples.

Results

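Brown fat of Kdm4b knockout (KO) male mice was compared with brown fat of wild-type (WT) male mice across the genes of 1 expression array per genotype. These are 2 of the 6 arrays of the series, chosen by their tissue and genotype labels, and the other 4 hold KO and WT arrays of epididymal and subcutaneous white fat. KO mice lacked Kdm4b in the whole body, so brown fat was not the only tissue without the gene. Mice of both genotypes were fed chow and housed at room temperature until the age of 2 months, and food was withdrawn for 6 hours before tissue was taken. The labels name neither the deleted exons nor the number of mice behind an array. The study asked how loss of Kdm4b leads to obesity.

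KDM4B is an enzyme of chromatin that takes methyl groups off lysines of histone H3, marks typical of silent genes. Brown adipocytes burn fatty acids and glucose in their many mitochondria, where UCP1 turns the proton gradient into heat. Noradrenaline from sympathetic nerves drives this through cyclic AMP, which releases fatty acids, induces Ucp1 and the deiodinase gene Dio2, and also induces immediate early transcription factors. Brown fat makes fatty acids and sterols as well, under the transcription factors SREBP1, SREBP2 and ChREBP.

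Each value is a MAS5 signal, the brightness of 1 probe set on 1 array on a linear scale, and differences are log2 KO minus WT after signals under 63 were set to 63. A gene with signals above 63 in at least 1 brown fat array counted as measured, which gave 13787 genes of 18193. With 1 array a genotype there is no spread between mice and no test within brown fat. Where a gene has several probe sets, their differences varied with an SD of 0.33 (5283 genes), 0.37 where the dimmest probe set lay under 250, 0.25 from 250 to 1000 and 0.15 from 1000 up. Fewer cells of a type and less RNA per cell cannot be told apart in these tissue samples. Signals above 63 were found for 13081 genes in WT and 12726 in KO, inside the range of 12655 to 13610 over the 6 arrays, and the 3′ over 5′ ratio of the Actb control was 2.69 and 2.74. Of the 10 markers of brown fat in the tissue check, 9 were brighter in both brown fat arrays than in all 4 white fat arrays. Ucp1 had 44367 in WT and 40619 in KO, against 1428 to 6649 in white fat, and Zic1, a transcription factor gene of the brown lineage, 876 in WT and 960.1 in KO, against 26.3 to 31.2. The exception was Lhx8, another lineage gene, with 294 in WT and 152 in KO and a highest white fat signal of 319. Kdm4b itself had 135 in WT and 95.2 in KO, a log2 difference of -0.50 on its 1 probe set. Without the deleted exons, this signal cannot show how much functional transcript was left.

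Past 2-fold in KO brown fat were 154 higher genes (1.12% of 13787) and 338 lower ones (2.45%), 3.57% in all. By sign alone, 46.4% of measured genes were higher and 53.6% lower. The median difference of all measured genes was -0.03, and centring each array on its median moved it to 0.11. Higher genes made up 31.3% of the 492 past 2-fold as deposited, 44.6% after quantile normalization and 52.0% after median centring, so the excess of lower genes depended on the scaling. Of the 338 lower genes, 39 belonged to a list of skeletal muscle genes. For 214 of the 492 genes the dimmer array lay at or under the floor, so their fold is a lower bound. Most were dim genes: 411 had their brighter signal between 126 and 500, where 9.12% of genes passed 2-fold. Among 2555 genes whose brighter signal was at least 2000, only 0.978% did so, 10 higher and 15 lower. Of the 137 genes past 2-fold with another probe set above the floor, 64.2% had all their other probe sets on the same side, against 46.4% of all 6234 such genes. In 6253 genes with at least 2 probe sets above the floor, 4 were past 2-fold higher on every probe set, Cryab, Fads3, Prune2 and Tnfrsf12a. Another 12 were past 2-fold lower on every probe set: Cacna2d1, Cldn1, Cox6a2, Cyp2b10, Fst, Mal, Rnf128, Slc12a2, Tnni2, Tpm2, Trpm6 and Vnn1.

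**Figure D1:**
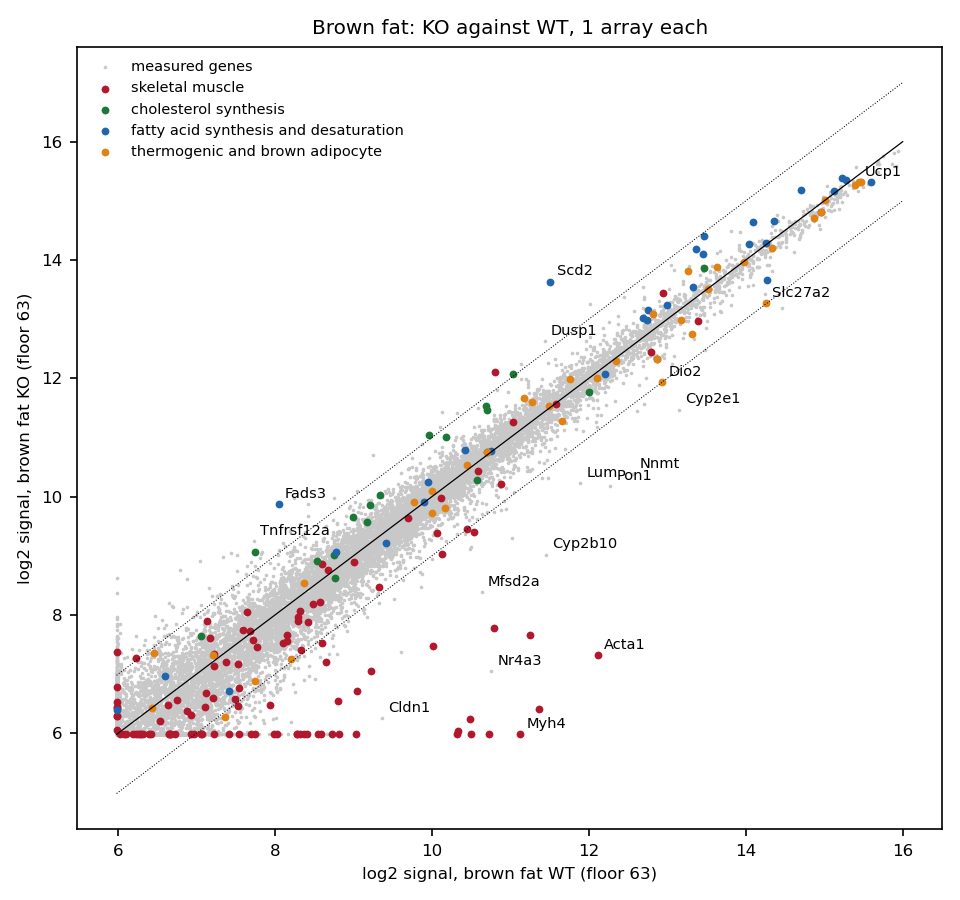
Log2 MAS5 signal in the KO array (vertical axis) against the WT array (horizontal axis) for 13787 measured genes in brown fat; each point is 1 gene, colours mark gene lists, the solid line is equality and dotted lines are 2-fold. Of the 114 skeletal muscle genes 94 lie below the line, 39 of them past 2-fold, and 14 of the 17 cholesterol synthesis genes lie above it, as do Scd2 and Fads3.

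Fatty acid synthesis and desaturation genes were mostly higher in KO brown fat. Of 32 measured members 26 were higher and 6 lower, with a median of 0.24 against -0.03 for all genes and 0.27 and 0.38 after quantile normalization and median centring. Past 2-fold were 2 higher (1.12% of all genes) and none lower. Scd2, one of the stearoyl-CoA desaturases that make monounsaturated fatty acids, had 2909.8 in WT and 12693 in KO, 4.36-fold higher in KO (log2 2.13). Its 3 probe sets differed in size, from 0.91 to 2.13, but all were higher. Fads3, a desaturase that acts on sphingoid bases, had 264 in WT and 941 in KO, 3.56-fold higher, with 1.36 and 1.83 on its 2 probe sets. These were the 2 desaturase genes that stood out, since Scd1, the main adipocyte isoform, had 49402 in WT and 40676 in KO (-0.28) on the probe set used and 0.97 on its other one. Fads1 had 439 in WT and 537 in KO and Fads2 169.7 in WT and 105 in KO, and the probe sets of both pointed in both directions. Scd1 was bright in both arrays, while Fads2 was close to the floor.

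The suppliers of carbon and reducing power to fatty acid synthesis were higher by less than 2-fold. Acss2, which makes acetyl-CoA from acetate, had 11293 in WT and 21713 in KO (log2 0.94), although 1 of its 3 probe sets had -0.32. Me1, the cytosolic malic enzyme that makes NADPH, had 10562 in WT and 18604 in KO, with 0.82 and 0.89 on its 2 probe sets. Pgd, of the pentose phosphate pathway, had 11172 in WT and 17569 in KO, and its 4 probe sets ran from 0.65 to 1.27. Acaca, the carboxylase that makes malonyl-CoA, had 17399 in WT and 25602 in KO (0.56 and 0.94), and Acly, which cleaves citrate to acetyl-CoA, 26748 in WT and 37146 in KO (0.37 to 1.47 on 4 probe sets). For Me1, Pgd, Acaca and Acly every probe set was higher in KO. Fasn, the synthase itself, had 39683 in WT and 42044 in KO, a difference of 0.08, smaller than the SD between probe sets. Tecr, the reductase of the elongation cycle, had 0.41, while Hacd2, its dehydratase, had 19752 in WT and 12993 in KO (-0.60) and Elovl3, the elongase of brown fat, 7479 in WT and 5129 in KO (-0.54). The regulators Mlxipl, which encodes ChREBP, and Thrsp had 0.24 and 0.05.

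Cholesterol synthesis genes were higher as a group: 14 of 17 measured members were higher and 3 lower, with a median of 0.64. The median was 0.63 after quantile normalization, 0.78 after median centring and 0.38 when all probe sets of a gene were averaged. Past 2-fold were 3 members, higher in each case, against 1.12% of all genes. Lss, which closes squalene epoxide into lanosterol, had 213 in WT and 537 in KO (2.52-fold), and its 3 probe sets ran from 0.67 to 1.33. Fdps, which makes farnesyl diphosphate, had 995 in WT and 2118 in KO (2.13-fold), and Nsdhl, which acts in removing the methyl groups at carbon 4 of the sterol, 2087 in WT and 4304 in KO (2.06-fold), each on 1 probe set. Fdps fell to 0.54 on averaging with its probe set under the floor, and Lss had 0.67 on its brightest probe set, both under 2-fold. Along the mevalonate steps, Hmgcs1 had 0.40, Pmvk 0.85, Mvd 0.58 and Idi1 0.76. Idi1, the isopentenyl diphosphate isomerase, had 1657 in WT and 2809 in KO, and its other probe set had 0.88. Among the sterol steps, Sqle had 0.69, Cyp51 0.66, Sc5d 0.83 and Dhcr7 0.64. The lower members were Ebp (-0.29), Fdft1, the squalene synthase (-0.23), and Mvk (-0.13). All lay within the SD between probe sets of 0.33 over all signals, which was smaller for brighter probe sets. Ebp (-0.29 to -0.15) and Fdft1 (-0.24 to -0.09) were lower in every setting, while Mvk ran from -0.13 to 0.12. Of 5 probe sets of Hmgcs1 and 2 each of Cyp51 and Idi1, every one was higher in KO, while the 4 probe sets of Hsd17b7 ran from -0.30 to 0.66.

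**Figure D2:**
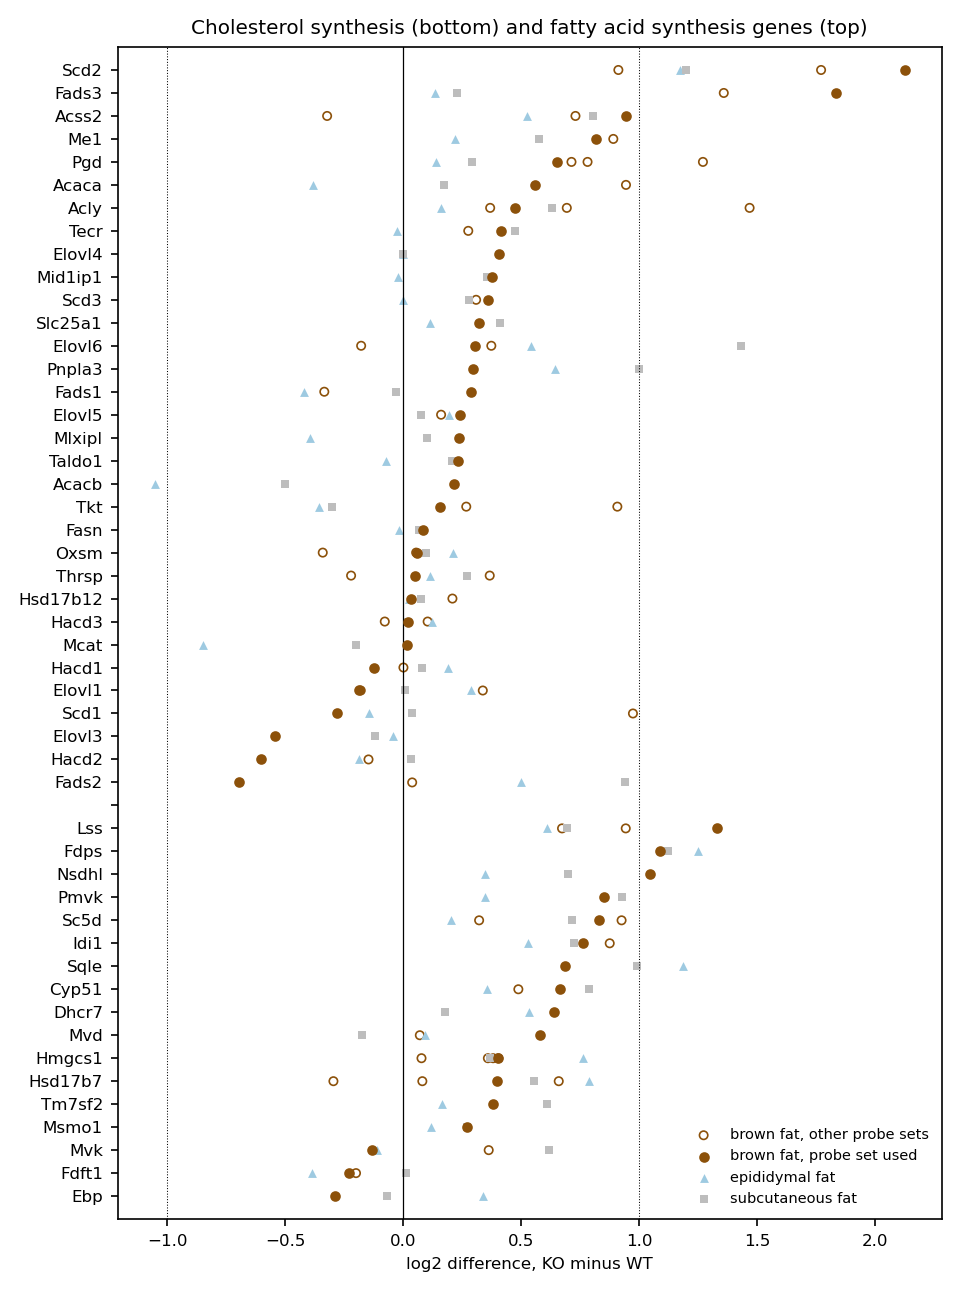
Log2 difference, KO minus WT (horizontal axis), of the 17 cholesterol synthesis genes (bottom block) and 32 fatty acid synthesis genes (top block) in brown fat, with filled circles for the probe set used and open circles for other probe sets above the floor; triangles and squares give epididymal and subcutaneous fat. Brown fat differences run from -0.29 to 1.33 in the cholesterol block, and Scd2 and Fads3 reach 2.13 and 1.83 in the fatty acid block, where Fads3 has 0.14 and 0.23 in the white depots.

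Because the cholesterol genes lay higher together, their promoters were searched for motifs of factors known to act with SREBPs at sterol genes. Promoter windows were the 250 bases before the gene start in RefSeq (GRCm38.p6), and 14 of the 17 genes had one. CCAAT, the box bound by NF-Y, on either strand, was found in all 14, against 39.6% of 11074 measured genes with a window and 37.5% of all 27025 genes of the table. The 14 include Ebp and Mvk, which were lower in KO, so within the list the box did not separate higher from lower genes. The sterol element TCACNCCAC, where N is any base, was found on either strand in 1 of 14, Hmgcs1, against 1.27% of measured genes, and GGGCGG, the Sp1 box, in 13 of 14, against 6641 of the measured genes. Of the 107 genes at least 2-fold higher in KO with a window, 42.1% had CCAAT, and of 250 lower genes 35.2% did. In the fatty acid list CCAAT was found in 16 of 27 genes. A match describes these letters and does not show binding. The windows of Lss, Nsdhl and Idi1, 3 of the cholesterol genes that were higher, and of Fads3 are shown with CCAAT or its reverse complement in capitals, each on the plus strand.
Lss chr10:76531355-76531604: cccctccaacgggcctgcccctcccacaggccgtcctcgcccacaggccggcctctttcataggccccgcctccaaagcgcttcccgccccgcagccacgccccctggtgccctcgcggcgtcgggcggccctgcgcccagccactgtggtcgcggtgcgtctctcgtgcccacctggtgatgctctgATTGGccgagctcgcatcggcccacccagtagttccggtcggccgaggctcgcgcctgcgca
Nsdhl chrX:72918271-72918520: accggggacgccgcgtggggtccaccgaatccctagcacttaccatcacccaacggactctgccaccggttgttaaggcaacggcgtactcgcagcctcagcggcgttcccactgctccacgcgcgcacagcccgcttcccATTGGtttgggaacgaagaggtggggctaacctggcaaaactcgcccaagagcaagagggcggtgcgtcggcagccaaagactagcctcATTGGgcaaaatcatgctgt
Idi1 chr13:8885356-8885605: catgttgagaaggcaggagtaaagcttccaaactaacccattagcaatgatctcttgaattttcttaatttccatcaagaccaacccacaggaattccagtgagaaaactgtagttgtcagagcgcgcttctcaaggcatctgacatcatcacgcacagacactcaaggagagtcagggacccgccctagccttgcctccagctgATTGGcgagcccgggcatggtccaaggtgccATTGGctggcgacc
Fads3 chr19:10041298-10041547: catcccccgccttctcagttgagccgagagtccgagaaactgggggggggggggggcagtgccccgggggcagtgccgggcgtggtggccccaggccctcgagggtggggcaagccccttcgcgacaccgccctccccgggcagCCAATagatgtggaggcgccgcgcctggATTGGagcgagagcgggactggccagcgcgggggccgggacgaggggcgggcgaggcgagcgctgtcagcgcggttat
In Lss the match starts 62 bases before the gene start, in Nsdhl 109 and 20, in Idi1 45 and 14, and in Fads3 106 and 78.

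Genes that sense or take up sterols did not share this shift: 8 of 19 were higher and 11 lower, with a median of -0.02 (0.12 after median centring). Insig1, which holds SREBPs in the endoplasmic reticulum and is itself an SREBP target, had 5574 in WT and 10673 in KO (0.94). Srebf1, which encodes SREBP1, had 3768 in WT and 3766 in KO, and Srebf2, which encodes SREBP2, had 0.36 on the probe set used and -0.08 on its other one. Apoe, the apolipoprotein that carries lipids out of macrophages and adipocytes, had 11439 in WT and 5721 in KO (2-fold lower), and Scarb1, the HDL receptor, 1413 in WT and 998 in KO (-0.50), lower on all 3 probe sets. Mmab, a cobalamin enzyme gene, had 278 in WT and 570.1 in KO (1.03), and its 4 probe sets ran from 0.27 to 1.11. It lay in no list and was chosen after its values were seen.

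Triglyceride assembly had a median of 0.01 (11 of 21 higher) and lipolysis and lipid droplet genes one of -0.12 (7 of 19 higher), which became 0.02 after median centring. Dgat1, which adds the last fatty acid to triglyceride, had 11332 in WT and 8836 in KO (-0.36), and Gpd2, which supplies glycerol phosphate to mitochondria, 22716 in WT and 27138 in KO (0.25 to 0.28 on 4 probe sets). Plin2, the droplet coat protein, had 0.25 and Cidec, which fuses droplets, -0.36. Among fatty acid uptake and binding genes (median -0.04, 9 of 21 higher), Fabp5, a fatty acid binding protein, had 14399.5 in WT and 22963 in KO (0.67 and 0.88 on 2 probe sets). Lpl, the lipase that frees fatty acids from circulating lipoproteins, had 48413 in WT and 40123 in KO (-0.27). Slc27a2, a very long chain acyl-CoA synthetase of brown fat, had 19623 in WT and 9866 in KO (-0.99). No member of these 3 lists passed 2-fold.

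Thermogenic and brown adipocyte genes were near their WT signals as a group. Of 37 measured members 15 were higher and 22 lower, the median was -0.05, and median centring turned it to 0.09. Past 2-fold was 1 member, the dim Tnfrsf9 (165 in WT and 77.3 in KO), on 1 of its 2 probe sets. Ucp1, the uncoupling protein, had a difference of -0.13, Cidea, a lipid droplet protein, -0.13, Cox8b -0.14 and Cox7a1 -0.16, the latter pair being respiratory chain isoforms of brown fat and muscle. These 4 have signals of 26808 or more, each on 1 probe set, and their differences became 0.01, 0.01, -0.01 and -0.02 at the highest of the alternative settings. Ppargc1a, the coactivator of mitochondrial genes, had 4398 in WT and 4097 in KO, with 5 probe sets from -0.48 to -0.07, and Prdm16, a determinant of the brown fate, 1020.1 in WT and 846 in KO, with 4 probe sets from -0.56 to 0.61. Ebf2, Zic1 and Plin5 lay within 0.13 of 0 on the probe set used.

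Some bright genes of the list were lower or higher than this. Dio2, the deiodinase that makes active thyroid hormone within the cell, had 7811 in WT and 3913 in KO, and the other probe sets differed by up to -1.37. It was lower in KO on every probe set. Kcnk3, a potassium channel, had 10188 in WT and 6849.8 in KO, but its probe sets ran from -0.57 to 0.87 and gave no common direction. Ucp3 had 3215 in WT and 2492 in KO, with -0.40 and -0.37. On the higher side, Acot11, a thioesterase, had 9838 in WT and 14419 in KO (0.55 and 0.80), Clstn3 2312 in WT and 3268 in KO (0.50), and Otop1, a proton channel, 7229 in WT and 8726 in KO (0.27). Kng1, a kininogen gene, had 0.23 and Mtus1 0.32, both higher on all their probe sets.

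The adrenergic and cyclic AMP list, 55 measured genes, had 21 higher and 34 lower, a median of -0.13, and 2 members past 2-fold lower against 2.45% of all genes. Its median was -0.05 after quantile normalization and turned to 0.08 after median centring, so the direction of the list rests on which scaling is used. Rgs2, which shortens signals of G proteins, had 6277 in WT and 2785 in KO (-1.17), and its 4 probe sets ran from -1.27 to -0.65, all lower. Adcy3, the adenylyl cyclase that makes cyclic AMP in brown adipocytes, had 8564 in WT and 4839 in KO, from -0.97 to -0.72 on 4 probe sets. Adcy2, another cyclase, had 277 in WT and 127 in KO (-1.13) on 1 probe set. Crem, a cyclic AMP-induced transcription factor, had 765 in WT and 476 in KO (-0.69), and Pde4a, which degrades cyclic AMP, 478 in WT and 255 in KO (-0.90). Ptger3, the prostaglandin E receptor that lowers cyclic AMP, had 2245 in WT and 4049 in KO (0.85), and Gnai1, an inhibitory G protein subunit, 4137 in WT and 5947 in KO (0.52).

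Immediate early genes split evenly, with 24 of 48 measured members higher and 24 lower and a median of 0.01. Past 2-fold were 4 higher, against 1.12% of all genes, and 2 lower, against 2.45%. Nr4a3, an orphan nuclear receptor that adrenergic signals induce in brown fat, had 1726 in WT and 133 in KO, 13-fold lower (-3.70) on its 1 probe set. It was the largest decrease outside the muscle list, and became -1.23 when averaged with its probe sets under the floor. Its paralogs had 1995 in WT and 2280.3 in KO (Nr4a1) and 1422 in WT and 1742 in KO (Nr4a2), and thus did not share it. Dusp2, a phosphatase of MAP kinases, had 257 in WT and 109 in KO (-1.24). On the higher side, Egr1, a zinc finger factor induced by growth signals, had 607 in WT and 1656 in KO (2.73-fold), and Dusp1, a phosphatase induced by stress and glucocorticoids, 2772 in WT and 6341 in KO (2.29-fold). Fos, the AP-1 subunit, had 99.7 in WT and 292 in KO (2.93-fold), and Csrnp1 was at least 2.96-fold higher (27.3 in WT and 186 in KO). Junb (0.94), Ier3 (0.71) and Jund (0.51) were higher by less, and Jun (-0.01) and Klf10 (-0.03) were near 0. Each of Egr1, Fos, Junb, Csrnp1, Dusp1 and Nr4a3 has 1 probe set above the floor, so the probe sets give no check of them.

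The cyclic AMP element TGACGTCA was searched in the same promoter windows because Dio2 and several immediate early genes are textbook cyclic AMP targets. It was found in 4 of 38 immediate early genes and 1 of 28 thermogenic genes with a window, against 2.78% of measured genes. The windows of Dio2, which was lower, and Dusp1, which was higher, both on the minus strand, hold 1 match each, in capitals, 95 and 143 bases before the start.
Dio2 chr12:90739039-90739288: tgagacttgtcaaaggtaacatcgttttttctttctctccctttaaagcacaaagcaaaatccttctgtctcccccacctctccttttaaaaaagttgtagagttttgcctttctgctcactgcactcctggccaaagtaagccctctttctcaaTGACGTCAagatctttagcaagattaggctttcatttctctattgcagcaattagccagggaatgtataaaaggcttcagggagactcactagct
Dusp1 chr17:26508473-26508722: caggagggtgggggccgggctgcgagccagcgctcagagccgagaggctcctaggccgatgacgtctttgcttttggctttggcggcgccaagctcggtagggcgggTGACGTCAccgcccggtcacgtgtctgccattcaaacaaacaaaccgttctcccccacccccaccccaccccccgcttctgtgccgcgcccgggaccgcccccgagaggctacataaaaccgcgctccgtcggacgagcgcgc
These 2 genes with the same 8 letters differed in opposite directions.

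**Figure D3:**
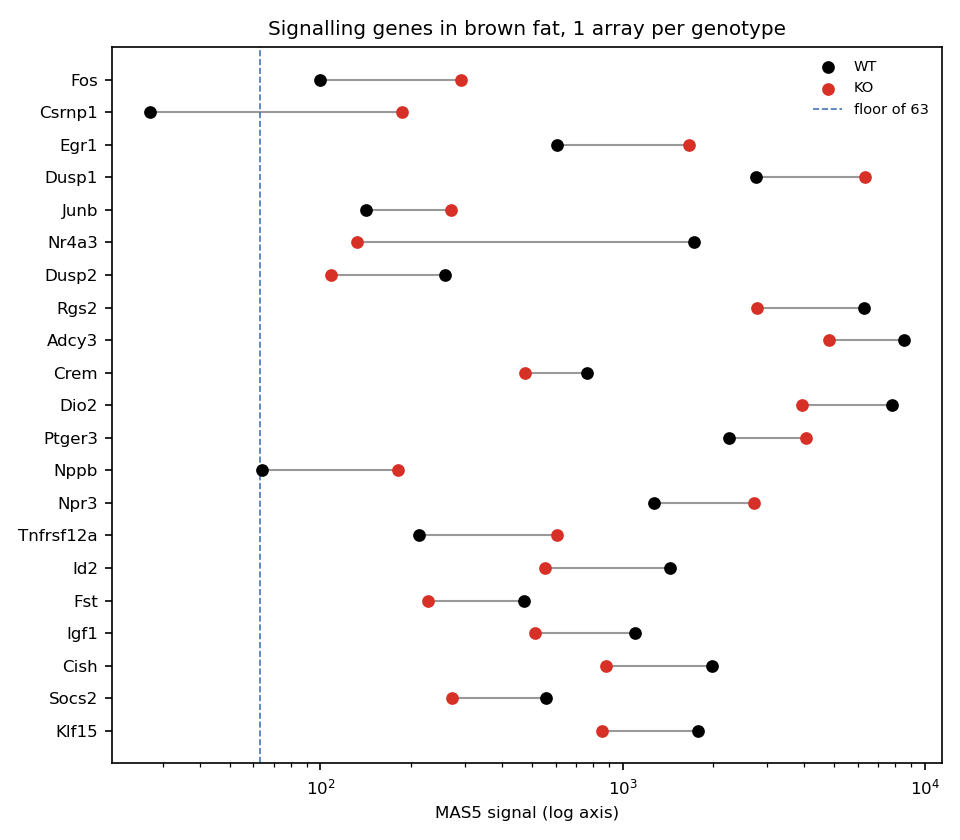
MAS5 signal (horizontal log axis) of 21 signalling genes in brown fat, with black points for the WT array, red points for the KO array and a dashed line at the floor of 63. Nr4a3 goes from 1726 to 133, Dio2, Rgs2 and Adcy3 lie lower in KO at signals above 2000, and Egr1, Fos and Dusp1 lie higher.

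Igf1, Cish and Socs2, genes that growth hormone induces in other tissues, were brought together after their values were seen. Igf1, the growth factor, had 1101 in WT and 514 in KO, and its 4 probe sets ran from -1.10 to -0.76. Cish, a feedback inhibitor of STAT5 signalling, had 1975 in WT and 881 in KO (-1.17), and Socs2, another such inhibitor, 556 in WT and 272 in KO (-1.03), although its 4 probe sets ran up to 0.36. Igf1 was lower on every probe set and Socs2 was not. In the insulin and IGF list (43 measured, median -0.06) 1 gene was past 2-fold in each direction, near the 1.12% and 2.45% of all genes, Igf1 lower and Pik3r3, a regulatory subunit of PI 3-kinase, higher (158 in WT and 327 in KO). Irs2, the insulin receptor substrate, had 524 in WT and 318 in KO (-0.72) and Tbc1d4, which restrains glucose transporter traffic, 904 in WT and 505 in KO (-0.84 and -0.60). Klf15, a transcription factor of amino acid and lipid use, had 1775 in WT and 853 in KO (-1.06), and Fkbp5, a glucocorticoid target, 491 in WT and 891 in KO (0.86). The glucocorticoid-induced list as a whole had 11 of 25 higher and a median of -0.05.

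Other receptors and secreted regulators came from several lists. In the BMP and TGF-beta list (50 measured, median -0.03) 2 genes were past 2-fold lower, near the 2.45% of all genes. They were Id2, an inhibitor of basic helix-loop-helix factors, with 1433 in WT and 554 in KO (-1.37 to -0.82 on 3 probe sets), and Fst, follistatin, an activin antagonist, with 471 in WT and 226 in KO (-1.54 and -1.06). All their probe sets were lower. Tnfrsf12a, the receptor of the cytokine TWEAK, had 212 in WT and 605 in KO, with 1.51 and 2.55. In the natriuretic peptide list 5 of 7 measured genes were higher, 2 of them past 2-fold (1.12% of all genes), with a median of 0.18. The median was 0.52 and 0.08 with the floor at the 20th and 60th percentile, and 0.11 with probe sets averaged. Its lowest member was Prkg2 at -0.87, which became -0.02 at the highest of the alternative settings. Npr3, the receptor that clears natriuretic peptides, had 1274 in WT and 2729 in KO (2.14-fold), from 0.35 to 1.10 on 3 probe sets. Nppb, the B-type peptide, had 63.9 in WT and 181 in KO, with WT just above the floor. Npr1, the signalling receptor, had 28.6 in WT and 68.2 in KO, a difference of 0.11 because the WT signal was set to the floor and 1.25 with the floor at the 20th percentile. Npr2 had 569.6 in WT and 643 in KO. Ffar4, a receptor for long chain fatty acids, had 2713 in WT and 1272 in KO (-1.09), and Pth1r, the parathyroid hormone receptor, 319 in WT and 743 in KO (1.22). Fgfr3 and Fgfrl1, a growth factor receptor and its decoy relative, had 0.97 and 0.67. Wnt5a had 319 in WT and 588 in KO, higher on 3 probe sets (0.67 to 0.88). The fibroblast growth factor list as a whole had 12 of 23 higher and a median of 0.06, and the Wnt list 19 of 38 and -0.001. Lep, the leptin gene, had 0.94 and Retn, the resistin gene, 4388 in WT and 2314 in KO (-0.92).

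Of the genes past 2-fold whose brighter signal was at least 2000, 11 were lower outside the muscle list, and 9 outside it were higher. The genes named here for their brightness alone were chosen after their values were seen. Nnmt, which methylates nicotinamide, had 6069 in WT and 1332 in KO (4.56-fold lower). Pon1, a lactonase of high density lipoprotein, had 4938 in WT and 1161 in KO (4.25-fold lower). Cyp2e1 and Cyp2b10 encode cytochromes P450. Cyp2e1 had 9065 in WT and 2833 in KO (3.2-fold lower), and Cyp2b10 had 2811 in WT and 518 in KO, from -2.64 to -2.01 on 3 probe sets. Nnmt, Pon1 and Cyp2e1 rest on 1 probe set each, but at signals above 1000 in both arrays, where probe sets of a gene varied least. Mfsd2a and Cldn1 lay under 2000 in both arrays. Mfsd2a, a transporter of lysophospholipids, had 1589 in WT and 333 in KO (4.78-fold lower) on 1 probe set. Cldn1, a tight junction protein, had 656 in WT and 76.2 in KO (-3.11 and -1.23). Slc12a2, the sodium, potassium and chloride cotransporter, had 6673 in WT and 3028 in KO, from -1.41 to -1.14 on 3 probe sets. Slc40a1, the iron exporter ferroportin, had 2861 in WT and 1277 in KO, with -1.16 and -0.87. Tfrc, the iron uptake receptor, had -0.36 on the probe set used and -1.83 on another.

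The brightest increases besides Scd2, Fdps, Nsdhl, Npr3 and Dusp1 were of mixed function. Rab6b, a GTPase of Golgi traffic, had 1119 in WT and 2754 in KO, from 0.66 to 1.39 on 4 probe sets. Rflna, an actin-organising protein, had 4128 in WT and 9769 in KO (1.24), and Nudt4, a hydrolase of inositol pyrophosphates, 2249 in WT and 4851 in KO (0.97 and 1.11). Tlcd3b, of a family related to ceramide synthases, had 1096 in WT and 2313 in KO, but its 4 probe sets ran from 0.15 to 1.56. Cryab, a small heat shock protein that also marks muscle, had 1792 in WT and 4386 in KO, with 1.29 and 1.47. Below these signals, Slc2a5, the fructose transporter, had 342 in WT and 818 in KO (1.26), Hmox1, which degrades haem, 88.2 in WT and 252 in KO (1.51), and Prune2 172 in WT and 527 in KO, from 1.05 to 1.75 on 3 probe sets. Mthfd2, of mitochondrial folate metabolism, had 114 in WT and 274 in KO, with 0.41 and 1.27.

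**Figure D4:**
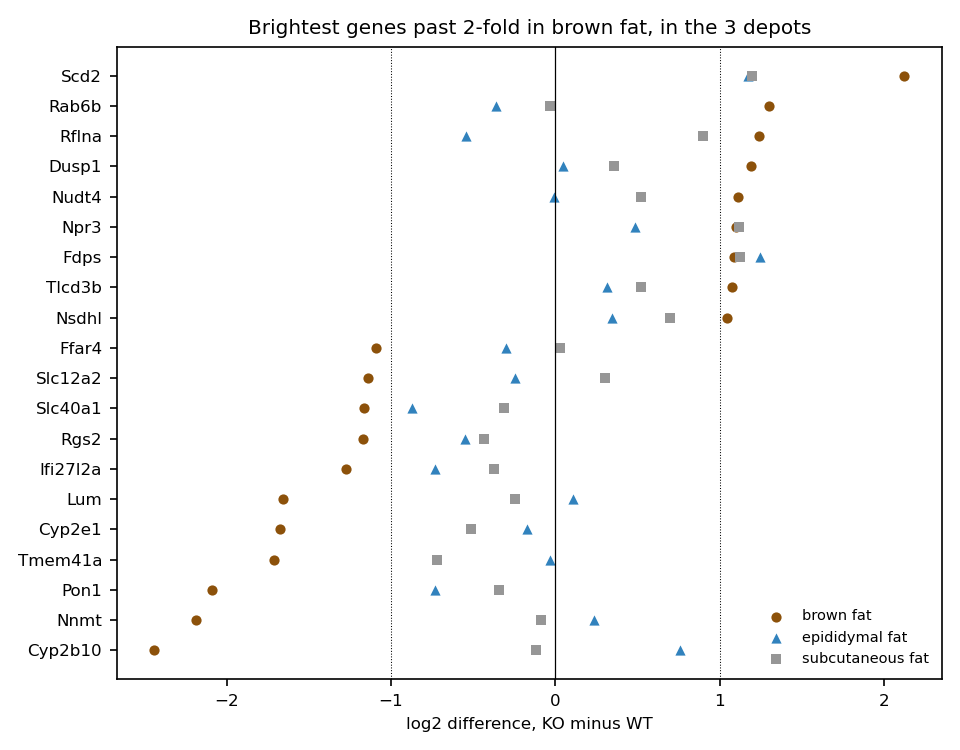
Log2 difference, KO minus WT (horizontal axis), of the 20 genes past 2-fold in brown fat whose brighter signal was at least 2000, muscle list left out, in brown (circles), epididymal (triangles) and subcutaneous fat (squares), 1 array per genotype and depot. Scd2 and Fdps are past 2-fold higher in all 3 depots, and Cyp2b10 and Nnmt are lower in brown fat by over 2 with white fat values between -0.12 and 0.76.

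Among markers of other cell types, those of fibroblasts, macrophages and mast cells were mostly lower and those of lymphocytes split evenly. Of 18 adipocyte precursor and fibroblast markers 15 were lower, with a median of -0.40 and -0.26 after median centring, and their summed signal went from 70369 to 51056. Lum, the matrix proteoglycan lumican, had 3779.8 in WT and 1198 in KO (3.15-fold lower), Col3a1 14349.9 in WT and 9663 in KO and Pdgfra, the precursor receptor, 765 in WT and 473 in KO. In the wider collagen and matrix list 24 of 48 were lower and the median was -0.03, so the shift did not cover all matrix genes. The matrix protease Mmp2 had 1366 in WT and 659 in KO, with -1.05 and -0.99, and Mmp9 345 in WT and 125 in KO, with -1.46 and -0.16. Of 17 macrophage markers 13 were lower (median -0.18, -0.04 after median centring), with Mrc1 at -0.78 and Cd14 at -0.86. All 6 measured mast cell markers were lower, at low signals, among them Cma1, the chymase, at 180.0 in WT and 81.8 in KO. Of 6 neutrophil markers 5 were lower (median -0.39), but the median was -0.03 with the floor at the 60th percentile. Of 10 B cell markers 5 were higher and 5 lower (median 0.03), and their summed signal went from 1318 to 1818. T and NK cell markers also had 5 higher and 5 lower (median -0.09), with a summed signal of 2601 in WT and 1856 in KO. Of 36 interferon-stimulated genes 29 were lower (median -0.22, -0.08 after median centring), with none past 2-fold. Ifi27l2a, an interferon-induced gene outside that list, had 22501 in WT and 9324 in KO (2.41-fold lower). The part that a different cell mix plays in these differences was not tested. In the 20 endothelial markers the median was -0.05 with 6 higher, and Plvap, of fenestrated vessels, had 631 in WT and 324 in KO (-0.96). Of 6 lymphatic endothelial markers 4 were lower (median -0.15).

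Mitochondrial lists differed little in size. Of 76 oxidative phosphorylation genes 67 were lower, but the median was -0.09, and it was -0.02 after quantile normalization and 0.04 after median centring. Past 2-fold was Cox6a2 alone, a subunit isoform of muscle and brown fat (596 in WT and 133 in KO), which is also in the muscle list. Fatty acid oxidation genes had 29 of 41 lower and a median of -0.15 (-0.01 after median centring). Acot1, a thioesterase, had 1226 in WT and 809.8 in KO (-0.60) and Oxct1, of ketone use, 13217 in WT and 10128 in KO, from -0.40 to -0.28 on 4 probe sets. The peroxisomal transporter gene Abcd2 had 637 in WT and 945 in KO, higher on 3 probe sets (0.38 to 0.57). Ribosomal protein genes had 26 of 29 lower and a median of -0.13, which became 0.004 after median centring. In glycolysis and the TCA cycle the median was 0.00068 (20 of 40 higher), and Hk2, the hexokinase of insulin-responsive tissue, had 9412 in WT and 12825 in KO (0.45).

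Clock genes had 17 of 21 members lower and a median of -0.20, which was -0.06 after median centring, with none past 2-fold. Usp2, a rhythmic deubiquitinase gene, had 2749 in WT and 1508 in KO, with -0.87 and -0.57, and Dbp, an output factor of the clock, 2969.6 in WT and 2208 in KO, with -0.60 and -0.43. Arntl, which encodes BMAL1, had 0.19, and Bhlhe40 0.30. Cell cycle genes had 26 of 34 higher, with 2 past 2-fold higher (1.12% of all genes) and none past 2-fold lower. Their median was 0.14, and 0.28 after median centring, 0.084 without probe sets that can cross-hybridise and 0 with probe sets averaged. Of the 45 members with a probe set, 11 were not above the floor in either array. The 2 past 2-fold were dim: Mcm2, a replication helicase subunit, had 153 in WT and 318 in KO. Top2a had 59.7 in WT, which was set to the floor, and 127 in KO.

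The largest decreases were in the muscle list. Of 114 measured members 94 were lower, the median was -0.59 (-0.33 with probe sets averaged), and the summed signal went from 115260.0 to 81068, while 25 of the 139 with a probe set were not above the floor in either array. Acta1, skeletal actin, had 4420.3 in WT and 159.6 in KO and Tnnc2, a fast troponin, 2637 in WT and 85.0 in KO. Myh1 and Myh4, fast myosin heavy chains, had KO signals of 4.32 and 24.2, under the floor, from 1273 and 2232. Their dimmest probe sets, with WT signals of 71.1 and 77.5, had -0.18 and -0.30, and -0.18 is the value of Myh1 when probe sets that can cross-hybridise are left out. Creatine and calcium cycling genes, some of them proposed to serve heat production, had 13 of 15 lower and a median of -0.56 (-0.26 with probe sets averaged). Without the 4 members that are also muscle genes, 9 of 11 were lower and the median was -0.44. Lower in every setting were Ckb, a creatine kinase gene (-0.64 to -0.50), Atp2a3 (-0.56 to -0.17) and Camk2d (-0.45 to -0.09). Atp2a2, the calcium pump of that cycle in fat, had 9716 in WT and 9403 in KO (-0.05). Gamt, which makes creatine, was higher, with 251 in WT and 333 in KO (0.40). The part of muscle cells in these differences was not tested.

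Of the 46 list medians 40 lay within 0.25 of 0, that of fatty acid synthesis (0.24) among them. The 5 below -0.25 were those of muscle, creatine cycling, fibroblast, neutrophil and mast cell genes, and cholesterol synthesis was the 1 above 0.25. Histone demethylase genes other than Kdm4b had values from -0.56 (Kdm4c) to 0.43 (Kdm6a), none past 2-fold, and 12 of 19 members, Kdm4b included, were lower. Kdm4c, a paralog of Kdm4b, had 558 in WT and 379 in KO, and Kdm4a 390.4 in WT and 370.4 in KO.

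**Figure D5:**
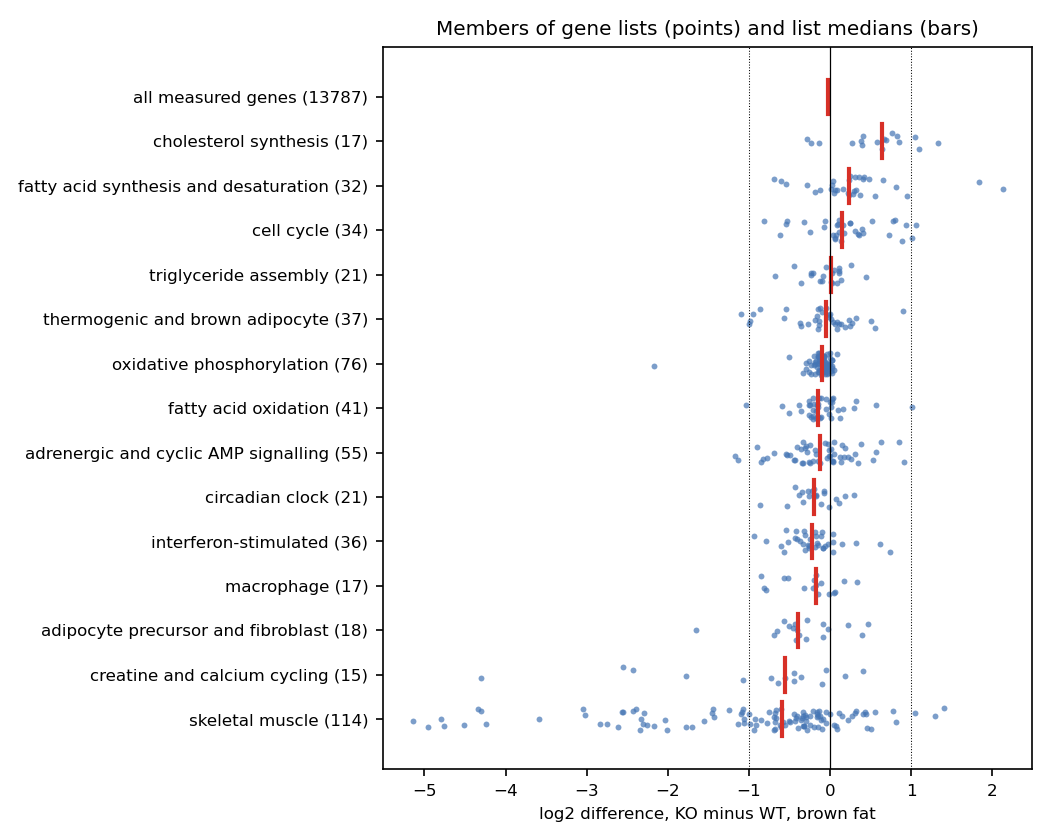
Log2 difference, KO minus WT in brown fat (horizontal axis), for members of 14 gene lists (points, spread vertically for legibility) with the median of each list and of all 13787 genes (red bars); the number of measured genes is in brackets and dotted lines mark 2-fold. The medians run from 0.64 for cholesterol synthesis to -0.59 for skeletal muscle.

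Outside the lists, the largest decreases of dimmer genes included Anxa8, an annexin, at least 6.4-fold lower (403 in WT and 57.5 in KO, -2.68 and -0.93), Olfml2b, at least 4.83-fold, and Osgin1, at least 4.56-fold. Cacna2d1, a calcium channel subunit, had 294 in WT and 72.6 in KO, with -2.02 and -1.27. The largest increases were Atp4b, a proton pump subunit, at least 6.23-fold higher (55.0 in WT and 393 in KO), and Il17rc, a cytokine receptor chain, at least 5.25-fold (55.8 in WT and 331 in KO). Zdhhc12 had 111 in WT and 433 in KO, Ttpa, the transfer protein of vitamin E, 132 in WT and 483 in KO, Fer1l6 301 in WT and 1007 in KO and Cela1, an elastase, 342 in WT and 942 in KO. Each of these increases rests on 1 probe set. Of 5139 measured probe sets that did not name exactly 1 gene symbol, 63 were past 2-fold higher and 147 past 2-fold lower. Among all measured genes, 1.12% were past 2-fold on the higher side and 2.45% on the lower side.

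The white depots gave values from other arrays for the same genes. Of the 137 genes at least 2-fold higher in brown fat and measured in epididymal fat, 8.03% were also at least 2-fold higher there, against 0.737% of all 12350, and in subcutaneous fat 10.6% of 142, against 2.16% of 12752. Some of these genes went the other way. In epididymal fat 2.92% were at least 2-fold lower, against 1.13% of all, and in subcutaneous fat 2.82%, against 0.627%. The shares of all genes were not matched for brightness, and most genes past 2-fold in brown fat were dim. Of genes at least 2-fold lower outside the muscle list, 1.61% of 248 were also at least 2-fold lower in epididymal fat, against 1.13% of all, and 3.07% of 261 in subcutaneous fat, against 0.627%. The opposite direction was more frequent in subcutaneous fat, where 7.66% of the 261 were at least 2-fold higher, against 2.16% of all, and 59.0% were higher by sign, against 54.2%. In epididymal fat 0.806% of the 248 were at least 2-fold higher. Scd2 had 1.17 and 1.20 in epididymal and subcutaneous fat, Fdps 1.25 and 1.12, and Tnfrsf12a 1.17 and 1.41, all higher as in brown fat. The cholesterol synthesis list had medians of 0.35 and 0.62 there, with 15 of 17 higher in each. Ptger3 had 0.80 and 1.04, Mmp2 -0.75 and -1.01, and Cryab 0.94 and 0.91. In contrast Fads3 had 0.14 and 0.23, Nnmt 0.24 and -0.08, Cyp2b10 0.76 and -0.12, and Egr1 -0.20 and 0.18. The fibroblast list had medians of 0.14 in epididymal and -0.32 in subcutaneous fat, and the macrophage list 0.23 and -0.45.

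Whether the KO difference of brown fat departs from that of white fat was tested with limma, in which the disagreement of the 2 white depots, 1 residual degree of freedom, serves as the error. The fit assumes that brown fat varies like the white depots, and depots stand in for replicates. It therefore holds no spread between mice. Of 13239 genes, 0 passed an adjusted p of 0.05 (0% of genes). The smallest adjusted p was 0.53, while without adjustment 370 genes had p under 0.05 on the higher side and 698 on the lower side, 8.07% in all. On simulated data of this design, differences of 2 on the log2 scale were recovered in 0% and differences of 4 in 93.5% of cases, so the fit could miss differences of the size seen for most genes outside muscle. With the prior variance allowed to follow brightness, limma called 34 genes (0.257% of 13239), 9 higher and 25 lower, 11 of them muscle genes. Outside the muscle list these included Nnmt, with a brown minus white difference of -2.26, and Fads3, with 1.65. They also included Nr4a3 (-3.11), Cyp2b10 (-2.76), Cldn1 (-2.99) and Egr1 (1.46). Without that prior none of these passed, so the call depended on the variance model.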

How the data were processed

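Total RNA of 6 fat samples of male mice, 1 per depot and genotype, was measured on 1-colour Affymetrix arrays. The authors deposited 1 table of linear intensity values, made with MAS5 in Affymetrix Expression Console per the submitters' processing notes, which give no version. MAS5 scales each array to a trimmed mean, here 500.0 in each array after trimming 2% at each end, so values compare between arrays only if most RNA is equal. Signals under 63, near the 40th percentile of probe sets, were set to 63 before log2. Of 45037 probe sets, 34945 named 1 gene symbol in the platform annotation and were used, 932 named several and 9160 none. Each gene was represented by its probe set of highest mean log2 value over 6 arrays, giving 18193 genes.

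Differences were taken as KO minus WT within brown fat, with no test. The number of arrays limits the precision. limma 3.58.1 in R 4.3.3 tested the brown against the white KO difference over genes above the floor in at least 3 of 6 arrays, with Benjamini-Hochberg adjustment, and was tested on simulated data. Tables were handled with pandas 2.3.3. Promoters are RefSeq windows of GRCm38.p6.

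Named genes were Kdm4b, the 25 largest increases and 25 largest decreases outside the muscle list (past 2-fold, brighter signal at least 2 times the floor, probe sets on the same side), up to 8 members per list and direction, and all members of the thermogenic, sterol and fatty acid synthesis, immediate early, natriuretic and demethylase lists. The lists and this comparison were chosen with earlier results of these data known. Alternatives changed the scaling, the floor, the probe set rule, the fold and the limma prior.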

Additional observations from a re-analysis of the deposited data

Results flagged for a closer look

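The results here are genes that were at least 2-fold different in brown fat and at least 2-fold different in the opposite direction in a white depot. With 1 array per genotype and depot, the difference between brown fat and a single white depot was not tested.

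Muscle genes made up several. Myh1, a fast myosin heavy chain, had -4.34 in brown and 4.33 in subcutaneous fat on a probe set that can cross-hybridise, and -0.18 in brown fat without such probe sets. Mb, myoglobin, had -4.25 and 4.33. Ckmt2, the mitochondrial creatine kinase of muscle, had -2.43 and 1.07, and Cox6a2, the respiratory chain isoform, -2.17 and 1.52. Over the muscle list, 94 of 114 members were lower in brown fat and 99 of 120 higher in subcutaneous fat.

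Outside muscle, H2bc22, a histone gene, had -2.10 in brown and 1.08 in subcutaneous fat, Spink2, a protease inhibitor, -1.74 and 1.27, and Ltf, lactoferrin of neutrophil granules, -1.02 and 1.12. Against epididymal fat, Mfsd2a had -2.26 in brown and 1.17 there, Jchain, the joining chain of secreted antibodies, 1.29 and -2.12, and Mcm2, the replication helicase subunit, 1.06 and -2.37. Over the alternative settings, brown fat values ran from -2.61 to -0.65 for H2bc22, -3.21 to -0.30 for Spink2 and 0.53 to 1.20 for Mcm2. These 3 were thus under 2-fold in some settings, while Ltf (-1.27 to -1.02), Mfsd2a (-2.26 to -2.10) and Jchain (1.02 to 1.43) were not.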

How the results depend on the processing

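No paired analysis was possible because brown fat has 1 array per genotype, and the limma comparison with white fat is the fit that takes each depot as a pair. Precision is limited by that number, and dim genes by the floor.

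Genes at least 2-fold higher numbered 154 as reported, 261 after quantile normalization, 257 after median centring, 868 and 43 with the floor at the 20th and 60th percentile, 84 with probe sets averaged, 673 at 1.5-fold, 22 at 3-fold and 89 with both arrays above the floor. Genes at least 2-fold lower numbered 338 as reported, 1156 and 73 with these floors, 207 with probe sets averaged, 1228 and 64 at these folds and 189 with both arrays above the floor. The limma comparison with white fat called 34 genes in place of 0 with the intensity trend.

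Over the lists, 355 list medians under an alternative were counted as close, 10 as moved and 10 as reversed. A median counted as close could still change sign where it lay near 0. Median centring, which moved the median of all genes to 0.11, turned 20 of the 34 medians below 0 to above 0, among them those of adipocyte (0.020), lipolysis (0.016), cyclic AMP (0.079), ribosomal protein (0.0042) and nerve genes (0.00096). The lipolysis median was 0.0027 without probe sets that can cross-hybridise. The mean in place of the median gave -0.99 for creatine cycling and -0.999 for muscle, while averaging probe sets gave -0.26 and -0.33. The 20th percentile floor gave 0.52 for natriuretic, -0.32 for B cell, 0.043 for epithelial and 0.41 for mesothelial genes. The 60th percentile floor gave 0.10 for white adipocyte, -0.030 for neutrophil, 0.88 for B cell, -0.81 for T and NK cell, 0.028 for lymphatic and 0.39 for mesothelial genes. The brightest probe set over brown fat gave 0.00011 for white adipocyte genes, and averaging probe sets gave 0 for neutrophil genes. Of the named genes' differences, 4094 alternative values stayed close and 242 moved, none to the other side for a gene past the threshold. Genes named for the largest differences had been chosen with their probe sets on the same side, which limits what the probe set alternatives can show. Differences under 2-fold could change sign, as for Hspa8 (-0.82 to 0.80) and Scd1 (-0.28 to 0.35). The cause of these shifts was not tested.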

Other observations

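Stress and redox genes gave values in brown fat that the lists above did not cover. In the heat shock and protein folding list 17 of 27 members were higher, with a median of 0.11. Hsp90aa1, a cytosolic chaperone, had a log2 difference of 0.48, and its 4 probe sets ran from -0.02 to 0.68. Hspa8, the constitutive chaperone of the same compartment, had 19476 in WT and 11029 in KO, but its 4 probe sets ran from -0.89 to 0.80. In the unfolded protein and integrated stress list 21 of 33 were lower, with a median of -0.05. Xbp1, a factor of the endoplasmic reticulum stress response, had -0.46 and was lower on all 4 probe sets. Atf5, of the mitochondrial stress response, had 4126 in WT and 6633 in KO (0.68).

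Among glutathione and antioxidant genes 21 of 37 were higher, with a median of 0.07. Gpx3, the secreted glutathione peroxidase, had 17515 in WT and 12166 in KO (-0.53), and Gpx8, of the endoplasmic reticulum, 11537 in WT and 7368 in KO (-0.65). Gclc, the first enzyme of glutathione synthesis, had 0.58, and its other probe set 0.53. Among vessel and lymphatic markers, most of which were lower (14 of 20 endothelial and 4 of 6 lymphatic), a few were higher and were chosen after their values were seen. Lyve1 had 389 in WT and 609.8 in KO (0.65), and its other probe set had 1.20. Sox17, an endothelial transcription factor, had 948 in WT and 1418 in KO (0.58), and Cdh5, VE-cadherin, 1159 in WT and 1646 in KO (0.51).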
